A study of Mus musculus with 7 samples.

Results

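Fos binding after seizures was examined at 8 genes that encode transporters of glutamate and GABA, the main excitatory and inhibitory transmitters of the brain. The genes are a functional group out of 21887 protein-coding genes placed on the chromosomes used here. They comprise 5 genes with mainly neuronal products (Slc17a6, Slc17a7, Slc17a8, Slc32a1 and Slc1a1) and 3 with mainly astrocytic products (Slc1a2, Slc1a3 and Slc6a11). A peak was assigned to a gene when any base of it lay within 10 kb of the gene span in the mouse assembly GRCm38.

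Chromatin immunoprecipitation with an antibody against Fos was followed by sequencing (ChIP-seq) of whole hippocampal tissue. All mice were wild-type C57BL/6J and 2 months old. In the 3 saline libraries they had received saline only. In the 3 kainic acid libraries they had been given kainic acid, which activates glutamate receptors and causes seizures, as 2 injections of 10 mg/kg into the peritoneum 30 min apart. Only animals with seizures of level 4 were taken, 1 hour after the first injection. An input library of saline tissue was also described, and no peak list of it was used here. The number of animals per library is not given in the labels, so the spread between libraries may be partly technical.

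Transmitter released at a synapse has first been loaded into vesicles by a vesicular transporter, and is cleared afterwards by transporters in the plasma membrane. Vesicular glutamate transporters (Slc17a6, Slc17a7 and Slc17a8, also called VGLUT2, VGLUT1 and VGLUT3) and the vesicular GABA transporter (Slc32a1, VGAT) define the transmitter that a neuron uses. In the hippocampus most glutamate is taken up by the astrocytic transporters Slc1a2 (GLT-1) and Slc1a3 (GLAST), with the neuronal Slc1a1 (EAAC1) on cell bodies and dendrites, while Slc6a11 (GAT-3) takes up GABA into astrocytes. Fos is a subunit of the transcription factor AP-1 and is made by neurons soon after strong activity.

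List length was 15009, 63197 and 29650 peaks in kainic acid replicates 1, 2 and 3, and 7, 3277 and 2 peaks in the saline replicates. The narrowest peak was 230, 207 and 270 bp in the kainic acid lists, 202 bp in saline replicate 2, and 49 and 76 bp in saline replicates 1 and 3. The latter 2 lists therefore stand apart both in length and in peak width, and could have held a peak near few genes of any kind. Read totals do not come with the lists, so sequencing depth is unknown, and a gene without a peak is a gene where none was called.

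Peaks near the transporter genes came almost entirely from the kainic acid lists. Kainic acid replicates 1, 2 and 3 had 7, 20 and 14 peaks within 10 kb of a member gene, and saline replicates 1, 2 and 3 had 0, 1 and 0. Every kainic acid list was above every saline list. On the scale of log10(number + 1) this was a mean of 1.13 ± 0.213 (SD, n = 3) after kainic acid, beside 0.100 ± 0.174 (SD, n = 3) after saline. The difference of 1.03 exceeded both SDs. Its two-sided exact permutation p was 0.1, and 3 against 3 libraries cannot give less. The lists differ in the same order over the whole genome: peaks near the members were 0.0466%, 0.0316% and 0.0472% of the kainic acid lists and 0.0305% of saline replicate 2.

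A gene was counted as having a kainic acid region when a merged region within 10 kb held peaks of at least 2 of the 3 kainic acid lists. This was so for 5 of the 8 members (62.5%), against 40.0% of all protein-coding genes. The 5 were Slc17a6, Slc1a1, Slc1a2, Slc1a3 and Slc6a11, and each of them also had a region in all 3 lists, which 23.9% of all genes had. Long genes have regions more often, and the members follow that order. Among protein-coding genes with a span under 20 kb the share was 26.3%, and neither member of that class (Slc17a7 and Slc32a1) had a region. It was 42.7% for spans of 20 to 50 kb, where Slc17a6 had one and Slc17a8 had none. It was 58.9% for 50 to 100 kb and 76.8% for 100 to 200 kb, and all 4 members in these classes had one. Read against genes of their own length, the members' count of 5 is near the background. In 4 of 8 members, namely Slc17a6, Slc1a1, Slc1a3 and Slc6a11, every kainic acid list had more peaks than every saline list, against 20.7% of all genes. Taken list by list, 5, 7 and 6 of the 8 members had a peak in kainic acid replicates 1, 2 and 3, against 26.4%, 60.3% and 40.9% of all genes. These last shares, and the 23.9% above, are over genes of all lengths and were not matched for span. The median span was 63.0 kb for the members and 17.2 kb for all protein-coding genes.

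**Figure D1:**
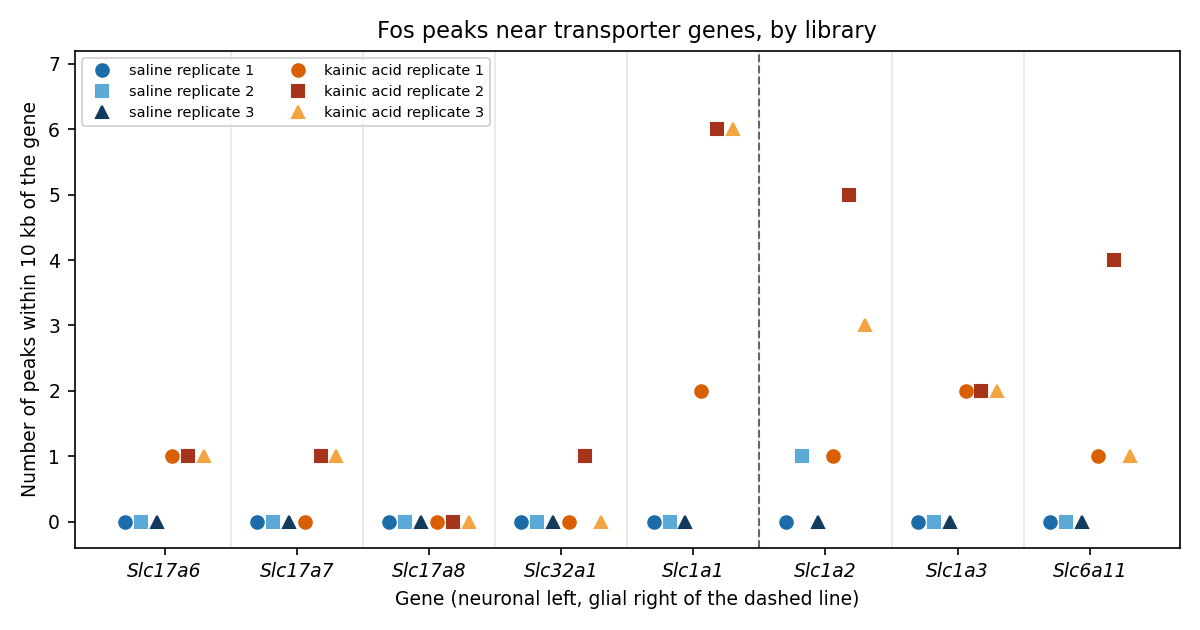
Number of Fos peaks within 10 kb of each transporter gene (vertical axis) in each of the 6 libraries; each point is 1 library, circles, squares and triangles are replicates 1, 2 and 3, blue is saline and orange to red is kainic acid. Slc1a1 reached 6 peaks in kainic acid replicates 2 and 3, Slc17a8 had 0 in every list, and the only saline point above 0 is saline replicate 2 at Slc1a2.

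Of the vesicular transporters, only Slc17a6 had a kainic acid region. VGLUT2, its product, is the vesicular glutamate transporter of many subcortical neurons. Its region (chr7:51662012-51662456) lay inside the gene span (chr7:51621830-51671126), 40.4 kb downstream of the start of transcription, and held 1 peak of each kainic acid list. The authors' fold, the height of a peak over its local background within a library, was 6.93, 6.33 and 5.11 in replicates 1, 2 and 3. These folds held percentile ranks of 9.22, 20.2 and 24.2 in their lists, where 0 is the highest fold. The region was thus among the stronger peaks of each list, and its 3 summits lay within 31 bp of each other.

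Slc17a7 encodes VGLUT1, the vesicular glutamate transporter of cortical and hippocampal principal neurons. Its span (chr7:45163921-45176139) held 2 peaks, each in a single list. Kainic acid replicate 3 had a peak at chr7:45164110-45164511, with its summit 0.343 kb downstream of the start, a fold of 3.39 and a percentile rank of 75.1. Kainic acid replicate 2 had one at chr7:45168054-45168357, 4.18 kb downstream, with a fold of 2.36 and a rank of 99.5, almost the weakest of its list. The 2 peaks do not overlap, so neither was shared between lists.

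Slc32a1, whose product loads GABA and glycine into vesicles of inhibitory neurons, had a single peak, in kainic acid replicate 2 (chr2:158624597-158624803, fold 4.40, percentile rank 49.9). It lay 8850 bp outside the Slc32a1 span (chr2:158607260-158615747) and 78 bp from the span of Actr5, a subunit of the INO80 chromatin remodelling complex, and so is far closer to that gene. Slc17a8 (chr10:89574020-89621249), whose product VGLUT3 is found in a subset of interneurons and in serotonergic and cholinergic neurons, had no peak in any of the 6 lists. Of protein-coding genes, 61.2% had a peak of at least 1 kainic acid list within 10 kb, as did 67.9% of those with a span of 20 to 50 kb, the class of Slc17a8. A gene of this length without a call is therefore not unusual.

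**Figure D2:**
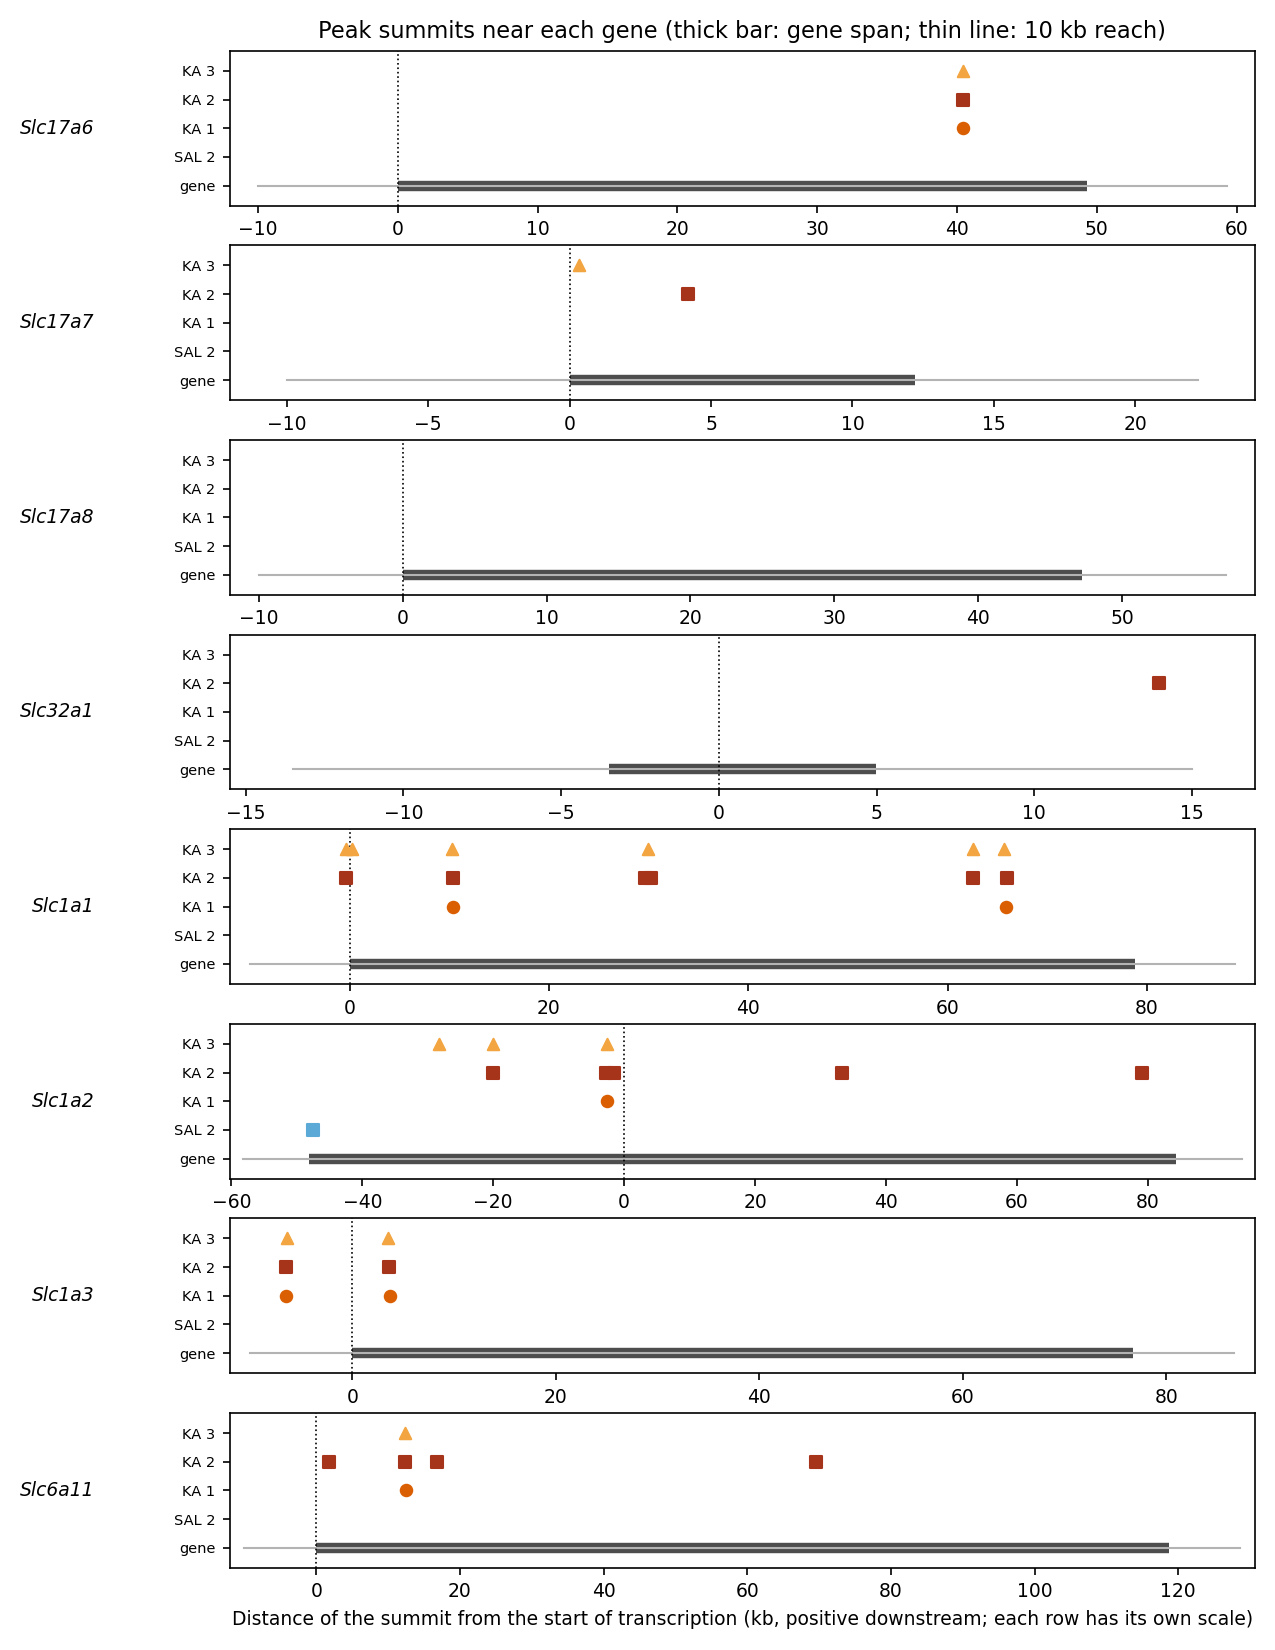
Peak summits near each gene by distance from its start of transcription (horizontal axis, kb, positive downstream, with a separate scale in each row); rows within a panel are saline replicate 2 (SAL 2) and kainic acid replicates 1 to 3 (KA 1 to KA 3), the thick bar is the gene span and the thin line the 10 kb reach. Saline replicates 1 and 3 had no peak here and are not drawn; summits of all 3 kainic acid lists line up at Slc17a6, Slc1a1, Slc1a2, Slc1a3 and Slc6a11.

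Slc1a1 encodes a neuronal transporter that takes up glutamate and also cysteine, and it had the most regions of the 8 genes. Kainic acid replicates 1, 2 and 3 had 2, 6 and 6 peaks within 10 kb of its span (chr19:28835135-28913960), and the saline lists had none. They formed 5 kainic acid regions, 2 of them in all 3 lists, and 1 further region in replicate 2 alone. At least 5 regions were found near 7.11% of protein-coding genes with a span of 50 to 100 kb. This number rested on the longer lists: without kainic acid replicate 2, or without replicate 3, it was 2.

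The 5 regions were spread over the Slc1a1 span. One covered the start of transcription (chr19:28834530-28835657), with a fold of 6.69 in kainic acid replicate 2 and 5.38 in replicate 3 and percentile ranks of 17.8 and 20.2. Replicate 2 had a single peak of 1072 bp there, while replicate 3 had 2 peaks on either side of the start, and replicate 1 had none. The values given for replicate 3 are those of its stronger peak. Its other peak had a fold of 2.95 and a rank of 91.5. The summits of the stronger peaks of replicates 2 and 3 lay 568 bp apart, the widest spread of the kainic acid regions near the members. The next region (chr19:28845104-28845872), 10.3 kb downstream, was in all 3 lists. Its folds were 4.27, 9.07 and 3.03 in replicates 1, 2 and 3, with ranks of 54.9, 7.34 and 88.6. It was thus among the strong peaks of replicate 2 and among the weak ones of replicate 3, although the 3 summits lay within 9 bp.

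The other region of Slc1a1 found in all 3 lists (chr19:28900479-28901518) lay 65.9 kb downstream, with folds of 4.64, 6.35 and 5.10 and ranks of 41.6, 20.1 and 24.3 in replicates 1, 2 and 3. A region at chr19:28897027-28897919 was in replicates 2 and 3 with ranks of 36.6 and 30.9. The weakest, at chr19:28864914-28865450, had ranks of 97.9 and 70.6 in the same lists. All 5 lay nearer to Slc1a1 than to any other protein-coding gene, since they overlapped its span. The first 2 also overlapped the long noncoding RNA gene Gm52404.

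The region at the start of Slc1a1 was the only one of the 11 kainic acid regions near the members that overlapped a promoter window of the RefSeq promoter table (250 bases before to 50 after the start). Of 21263 such windows of protein-coding genes, 5.15% overlapped a kainic acid region. The windows of Slc1a2 and Slc1a3 held no peak, although regions of both genes lie within a few kb of the starts used. The start of Slc1a2 in that table, chr2:102706438, lies inside the gene span, which begins upstream at chr2:102658239. Its window is therefore not that of the upstream end of the span. The 250 bases before the start are shown for Slc1a1, with Slc1a2 and Slc1a3, its glial relatives. They are RefSeq sequences of GRCm38.p6, at chr19:28834885-28835134 (plus strand), chr2:102706188-102706437 (plus strand) and chr15:8710808-8711057 (minus strand), written 5′ to 3′ along the gene, with each CG dinucleotide in capitals.

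Slc1a1: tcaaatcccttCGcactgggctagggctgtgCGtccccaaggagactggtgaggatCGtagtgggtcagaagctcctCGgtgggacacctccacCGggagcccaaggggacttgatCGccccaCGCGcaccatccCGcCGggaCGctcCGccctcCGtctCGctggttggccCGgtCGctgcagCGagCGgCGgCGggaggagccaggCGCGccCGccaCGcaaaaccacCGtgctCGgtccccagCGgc

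Slc1a2: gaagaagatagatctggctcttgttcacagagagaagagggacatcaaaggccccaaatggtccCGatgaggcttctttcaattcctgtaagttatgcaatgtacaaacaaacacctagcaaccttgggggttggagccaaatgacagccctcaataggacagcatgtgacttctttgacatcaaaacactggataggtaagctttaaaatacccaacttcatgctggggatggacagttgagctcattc

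Slc1a3: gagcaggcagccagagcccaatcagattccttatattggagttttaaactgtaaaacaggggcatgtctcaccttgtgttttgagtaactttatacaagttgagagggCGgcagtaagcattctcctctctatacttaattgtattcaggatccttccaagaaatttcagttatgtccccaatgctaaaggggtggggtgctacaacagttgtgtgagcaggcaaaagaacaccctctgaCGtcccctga

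These 250 bases hold 27 CG dinucleotides at Slc1a1, 1 at Slc1a2 and 2 at Slc1a3. The median over promoters of protein-coding genes was 10, and over those that overlapped a kainic acid region it was 16. A GC-rich promoter did not go with a peak at every member, since that of Slc6a11 holds 25 CG dinucleotides in the same stretch and had no peak. The AP-1 motif TGACTCA, read on both strands (its reverse complement is TGAGTCA), was searched in the 300 bases of each window, as was the cyclic AMP response element TGACGTCA, a palindrome that shares 4 leading bases with it. Neither was found in any of the 10 windows of the 8 members, including that of Slc1a1. TGACTCA was in 4.66% and TGACGTCA in 2.23% of all windows of protein-coding genes, and in 17.3% and 4.47% of the 1096 windows that overlapped a kainic acid region. Motifs inside the distal regions were not analysed here.

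Slc1a2, the transporter that carries most glutamate uptake in the forebrain, had a region in the upper ranks of all 3 lists. It spans chr2:102658239-102790784, and kainic acid replicates 1, 2 and 3 had 1, 5 and 3 peaks near it. The leading region (chr2:102703175-102704312) was in all 3 lists and lay 2.67 kb upstream of the annotated start in the promoter table, inside the gene span, which begins further upstream. Its folds of 7.07, 12.03 and 5.97 in replicates 1, 2 and 3 had percentile ranks of 8.37, 2.82 and 14.0, a mean of 8.38 ± 5.56 (SD, n = 3). The number of reads over the summit, recovered from the deposited values, was 37, 51 and 39. Another peak of replicate 2 lay between this region and the start (chr2:102704653-102704999, rank 24.6).

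The second kainic acid region of Slc1a2 (chr2:102686228-102686564) lay 20.0 kb upstream of the same start, also inside the span. It was in replicates 2 and 3 with ranks of 67.8 and 90.9. It was absent when only peaks with a −log10 q of at least 5 were kept, which left Slc1a2 with 1 region. The other peaks were in 1 list each, with ranks of 48.3 and 91.1 in replicate 2 and 96.5 in replicate 3. Slc1a2 was also the only member with a saline peak. It was in saline replicate 2 at chr2:102658751-102659148, at the upstream end of the span, with 26 reads over its summit, a fold of 4.54 and a rank of 33.3 in that list. No kainic acid list had a peak at this position, and it overlapped the promoter window of the long noncoding RNA gene LOC115489466. Of all protein-coding genes, 17.0% had a peak of saline replicate 2 within 10 kb.

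Slc1a3 encodes the glutamate transporter of radial glia, astrocytes and Bergmann glia. It had 2 peaks in each kainic acid list and none in the saline lists. They formed 2 regions, both in all 3 lists. One lay inside the span (chr15:8634124-8710807), 3.65 kb downstream of the start, at chr15:8706956-8707573, with folds of 4.06, 6.02 and 4.03 and ranks of 63.5, 23.0 and 48.7 in replicates 1, 2 and 3. The other lay 6.46 kb upstream, at chr15:8716931-8717592, within the divergent noncoding gene Gm31340. Its folds were 4.35, 7.27 and 4.41 and its ranks 50.1, 14.3 and 37.1. In both regions replicate 2 ranked highest and replicate 1 lowest, and both were of middle rank by fold in replicates 1 and 3. The median ranks of all kainic acid regions of the genome by fold had the same order (47.2, 24.3 and 44.8 in replicates 1, 2 and 3), so this order is not particular to Slc1a3. Ranked by −log10 q, the upstream region stood higher, at 24.9, 7.46 and 19.1 in replicates 1, 2 and 3. The region inside the span changed little, at 60.2, 20.1 and 44.6. The upstream region was the only kainic acid region of any member outside its gene span, and the nearest span of another protein-coding gene, Ranbp3l, was 250357 bp away.

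Slc6a11, the astrocytic GABA transporter, had 1 kainic acid region. It lay at chr6:114143312-114144029, inside the span (chr6:114131241-114249886) and 12.4 kb downstream of the start, with folds of 5.52, 8.33 and 7.75 and ranks of 22.3, 9.69 and 5.32 in replicates 1, 2 and 3. Its mean rank of 12.4 ± 8.83 (SD, n = 3) stood next to that of Slc1a2, and their SDs overlap. The order of this pair turned without kainic acid replicate 1, where the mean rank was 7.50 at Slc6a11 and 8.39 at Slc1a2. Over peaks whose −log10 q reached 10 it was 7.50 and 8.38, but this cutoff removed the replicate 1 peak of Slc6a11 (8.68). Its value there covers replicates 2 and 3 only, while that of Slc1a2 covers all 3 lists. Replicate 2 had 3 further peaks at Slc6a11, with ranks of 31.8, 49.9 and 88.8, that no other list shared.

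The mean rank of the strongest region was 8.38 ± 5.56 at Slc1a2, 12.4 ± 8.83 at Slc6a11, 17.9 ± 7.78 at Slc17a6, 19.0 ± 1.69 at Slc1a1 and 33.8 ± 18.1 at Slc1a3 (SD over 3 lists, at Slc1a1 over 2). Neighbours in this order do not differ beyond their spread. The order also depended on the measure. With ranks by −log10 q in place of fold, the mean was 7.86 at Slc1a2, 15.4 at Slc1a1, 16.3 at Slc6a11, 17.2 at Slc1a3 and 19.5 at Slc17a6. Slc1a2 was still first, but Slc17a6 and not Slc1a3 was last. The rank by fold at Slc1a1 rests on which region counts as its strongest: it was 32.9 without replicate 2, 30.8 without replicate 3 and 28.7 when a region had to be in all 3 lists. Over the 11 regions the median rank was 41.6, 20.1 and 30.9 in replicates 1, 2 and 3 (7, 11 and 11 regions with a peak), beside 47.2, 24.3 and 44.8 for all kainic acid regions of the genome. Single-list regions near the members numbered 9 in replicate 2, 2 in replicate 3 and 0 in replicate 1, in the order of the lengths of the lists. Member peaks of the kainic acid lists had 11 to 51 reads over the summit.

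**Figure D3:**
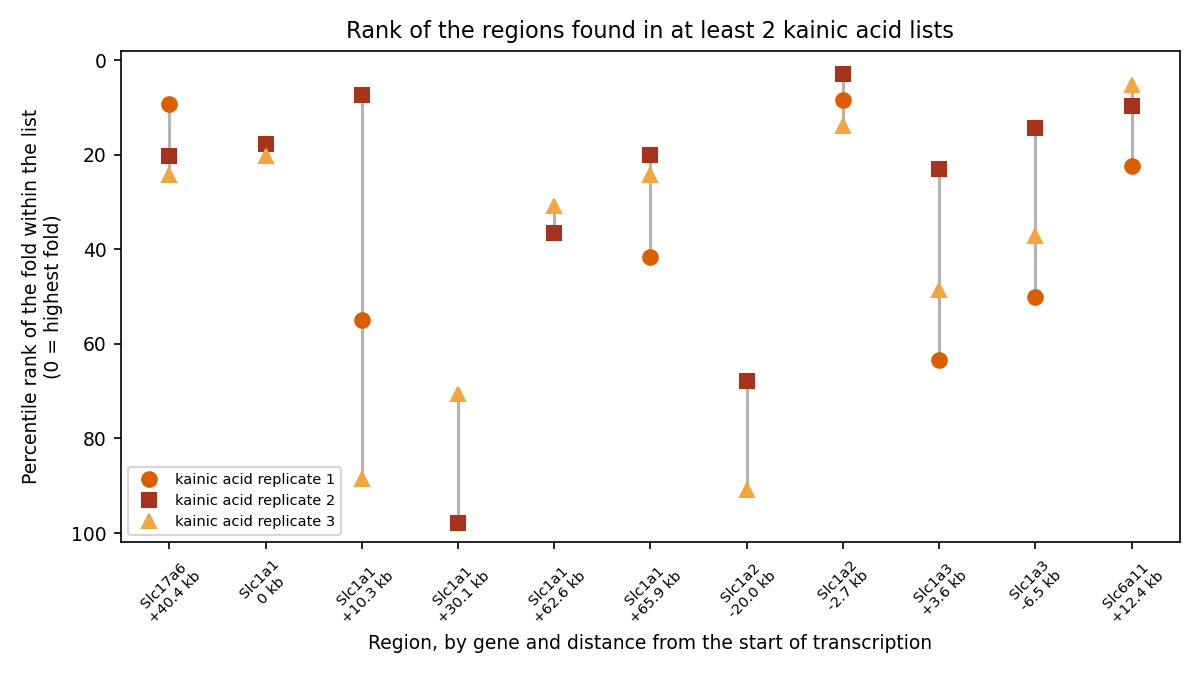
Percentile rank of the deposited fold within each kainic acid list (vertical axis, 0 is the highest fold, axis inverted) for the 11 regions found in at least 2 lists; each point is the strongest peak of 1 list and grey lines join the lists of a region. The region 2.67 kb upstream of the annotated start of Slc1a2, inside its span, is high in all 3 lists. The one 10.3 kb downstream of the start of Slc1a1 ranges from 7.34 to 88.6.

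Glial and neuronal transporters were then compared within each kainic acid list. All 3 glial genes and 2 of the 5 neuronal genes had a kainic acid region, but the glial genes are longer, so peaks were counted per 100 kb of searched window (388 kb in all for the glial and 296 kb for the neuronal genes). Glial genes had 1.03, 2.84 and 1.55 peaks per 100 kb in replicates 1, 2 and 3, and neuronal genes had 1.01, 3.04 and 2.70. The lists did not agree on a direction: the glial density was slightly higher in replicate 1 and lower in replicates 2 and 3. The mean difference, glial minus neuronal, was −0.447 ± 0.623 (SD, n = 3), smaller than its spread, and the two-sided exact sign-flip permutation test gave p = 0.5, where the smallest value 3 lists allow is 0.25. With peaks counted inside the gene span only, the glial density was lower in 3 of 3 lists, by a mean difference of −1.23 peaks per 100 kb (exact sign-flip permutation, p = 0.25). Over peaks whose −log10 q reached 10 it was also lower in 3 of 3 lists, with a mean difference of −0.352 (exact sign-flip permutation, p = 0.25). Over peaks whose −log10 q reached 5 it was lower in only 1 of 3 lists, with a mean difference of −0.0887. It was lower in 2 of 3 lists at a reach of 50 kb (−0.184) and with equal numbers of kainic acid peaks (−0.207). Over all protein-coding genes the density was 0.847, 3.91 and 1.75.

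The neuronal density rested on Slc1a1, which held 14 of the 20 kainic acid peaks near the neuronal genes. Without it the neuronal genes, now only the 4 vesicular transporters, had 0.507, 1.52 and 1.01 peaks per 100 kb. The difference then became 0.791 ± 0.454 (SD, n = 3), higher for the glial genes in 3 of 3 lists, with p = 0.25 in the same exact permutation test, the smallest it can give. The sign of the glial against neuronal comparison thus changed when this gene was left out. Arranged by place in the cell, a grouping made after the values were seen, the 4 plasma membrane transporters had 10 kainic acid regions and the 4 vesicular ones had 1. The former are also the 4 longest genes, and per 100 kb of window they had 2.05 regions against 0.507, with 1.58 over all protein-coding genes. Slc1a1 held 5 of the 10 regions. The other 3 plasma membrane transporters are the glial genes, which had 1.29 regions per 100 kb, below the value over all protein-coding genes. In whole tissue, binding in fewer cells and weaker binding per cell cannot be told apart, and the lists do not show in which cell type a site was bound.

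**Figure D4:**
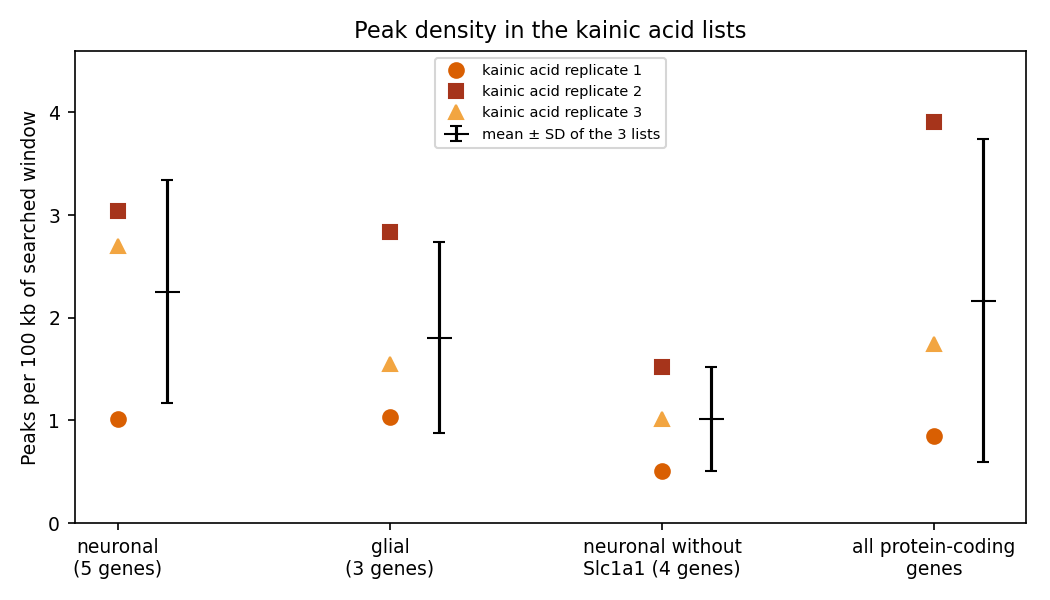
Peaks per 100 kb of gene span plus 10 kb on both sides (vertical axis) in the 3 kainic acid lists (points) for neuronal, glial and all protein-coding genes; black bars are the mean ± SD of the 3 lists. Neuronal and glial genes overlap, and the neuronal values drop to between 0.507 and 1.52 without Slc1a1.

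Other genes that handle glutamate and GABA were read in the same way. Of 24 such genes, 14 (58.3%) had a kainic acid region within 10 kb, against 40.0% of all protein-coding genes and 42.7% of those with spans of 20 to 50 kb (the list has a median span of 34.5 kb). Counted inside the span only, 9 of the 24 had a region, against 28.5% of all protein-coding genes, and within 50 kb 22 had one, against 62.7%. Gls2, a glutaminase that forms glutamate from glutamine, led with 4 regions, 1 of them in all 3 lists. Slc6a12 (a betaine and GABA transporter), Slc1a7 (a glutamate transporter mainly of retina), Slc38a1 (a glutamine transporter), Glud1 (glutamate dehydrogenase), Gad1 (a GABA-synthesising enzyme) and Abat (GABA transaminase) had 2 each. One of the regions of Slc6a12 is shared with its neighbour Slc6a13 and was counted for both.

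The genes without a kainic acid region included Gad2, the other GABA-synthesising enzyme, and Glul, the astrocytic glutamine synthetase. Slc1a4, Slc1a5, Slc1a6, Slc7a11, Slc17a9, Slc38a3 and Slc38a5 had none either. Glul had 0, 2 and 0 peaks in kainic acid replicates 1, 2 and 3, and Gad2 had 0, 1 and 0. Both thus had peaks in the longest list only.

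As a guide to cell type, short marker lists were counted too. A kainic acid region lay near 6 of 6 neuronal, 3 of 6 astrocyte, 3 of 6 oligodendrocyte, 2 of 6 microglial and 2 of 6 endothelial marker genes, against 40.0% of all protein-coding genes. The neuronal markers are much longer (median span 168 kb, against 14.2 kb for astrocyte and 17.1 kb for oligodendrocyte markers), and 76.8% of all protein-coding genes with spans of 100 to 200 kb had a region. Per 100 kb of window there were 4.68 regions at the neuronal, 4.08 at the oligodendrocyte, 2.12 at the astrocyte, 0.883 at the microglial and 0.520 at the endothelial markers, beside 1.58 over all protein-coding genes. Of the 6 astrocyte markers, Gfap, Gja1 and Fgfr3 had no kainic acid region, while Aldh1l1 and S100b had 2 each and Aqp4 had 1.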

How the data were processed

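The data were 6 peak lists of Fos ChIP-seq, 1 per library and none pooled. Per the labels' processing notes from the submitters, Trim Galore 0.6.4, Bowtie2 2.3.4.3, MACS2 and deepTools 3.5.0 were used with build mm10, which is GRCm38. Per the file contents, the deposited peak names record trimming, a mapping quality of 30, sorting and merging. The control library and the cutoff are not given in the sources used here. Column 7 as deposited is the fold, a ratio of peak height to local background in the same library. The −log10 p and the −log10 q, as deposited, are per library too, and the deposited score is 10 times the −log10 q, rounded down. None is scaled between libraries, so folds were used as ranks within a list.

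Peaks overlapping by at least 1 bp were merged over all lists. Gene spans came from the RefSeq table of GRCm38.p6, which gives no exons, and starts and strands from the RefSeq promoter table. All 8 symbols matched both tables. Reads over a summit (k) and local background (λ) were recovered by solving (k + 1)/(λ + 1) = fold together with the Poisson p, within 0.001 in −log10 p, checked on simulated data, as were merging and counting. Tests were two-sided exact permutation tests over libraries (Python 3.11.15, scipy 1.17.1). Named were all members and their regions, and of the 24 other handling genes those with most regions (ties included) and those with none, except genes not reported here. Alternatives were other −log10 q minimums, reaches, overlaps and list lengths, and single libraries or genes left out. The members and lists were chosen with earlier results of these data known.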

Additional observations from a re-analysis of the deposited data

How the results depend on the processing

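Of 67 alternative values of the main results, 59 kept their direction or stayed within the spread or the 1.5-fold limit, 6 moved and 2 reversed. The number of members with a kainic acid region was 5 to 7 under every alternative run. The number of regions near members was 7 in place of 11 when −log10 q had to reach 10, again 7 when all 3 lists were required, and was 7 to 11 with one kainic acid library left out, because fewer lists allow fewer pairs. Of the 24 other handling genes, 9 had a region when only the span was searched (28.5% of all protein-coding genes). At a reach of 50 kb 22 had one (62.7% of all protein-coding genes). The glial minus neuronal difference reversed to 0.791 without Slc1a1 and to 1 peak per gene when not divided by length, since the glial genes are longer. With one kainic acid list left out it ran from −0.680 to −0.0930. The difference in log10 number of peaks was 0.939 to 1.15 with one library left out, and 0.833 without both short saline lists, an alternative chosen after seeing the data. With the replicate block it was 1.03 (exact permutation of signs, p = 0.25, and 3 pairs cannot give less). Deviations over genes of same-numbered libraries correlated at 0.281, 0.275 and 0.0414. Kainic acid replicate 1 correlated with saline replicate 3 (0.2815) as much as with saline replicate 1 (0.2806). With only 7 and 2 peaks in saline replicates 1 and 3, these correlations cannot show whether the numbers mark pairs. The main test took the libraries as unpaired. The permutation tests cannot pass 0.05 at this size, and their p-values say nothing about stability.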

Other observations

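By the number of peaks in the 6 lists, other protein-coding genes matched Slc1a1, Slc1a2 and Slc1a3 exactly. Akain1, Mpdz and Ncam2 had the same counts as Slc1a1 in every list, with 4, 3 and 2 kainic acid regions against its 5. The counts of Slc1a2, its saline peak included, were shared by 15 genes, of which Traf5, Trp73 and Pxdn had the closest window lengths. Those of Slc1a3 were shared by 37 genes, of which Virma, Nf2 and Fgd3 were closest. At a reach of 50 kb, Slc17a7 gained 1 kainic acid region, while Slc17a8 and Slc32a1 still had 0.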
